A study of Mus musculus with 22 samples.

Results

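Oxidative phosphorylation genes encode the subunits of the 5 respiratory complexes of the mitochondrial inner membrane. They were chosen by symbol from the deposited count table: mitochondrial genes starting mt-Nd, mt-Co, mt-Cyt or mt-Atp, and nuclear genes starting Ndufa, Ndufb, Ndufc, Ndufs, Ndufv, Sdha to Sdhd, Uqcr, Cox4 to Cox8 or Atp5. Symbols marked as pseudogenes, the Ndufaf assembly factors and genes with a mean under 1 CPM (the counts-per-million unit, a count scaled to a common library total) over the 22 libraries were left out. This gave 95 genes of 55367 symbols, 13 encoded by mitochondrial DNA and 82 by the nucleus. The mitochondrial genes hold 7 subunits of complex I, 1 of complex III, 3 of complex IV and 2 of complex V. The nuclear genes hold 37 subunits of complex I, 4 of complex II, 8 of complex III, 16 of complex IV (with Ndufa4 and its relative Ndufa4l2) and 17 of complex V. Just inside the threshold lay Cox4i2, with a mean of 1.68 CPM, and just outside it Cox8c, with 0.294 CPM. All 95 genes also passed the filter on low counts, so none is missing from the tests.

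The libraries are RNA-seq of mouse cells in 10 groups, of 3 libraries in 2 groups and 2 libraries in the others. The C57 cells are wild-type and were grown either as embryonic stem cells with LIF (C57 ES) or in the culture for primitive endoderm stem cells (C57 PrE). All other groups derive from E14 cells. EPZ line 1 and EPZ line 2 are wild-type primitive endoderm stem cell lines that were induced from embryonic stem cells with EPZ-6438, an inhibitor of the histone methyltransferase EZH2, and were kept in the primitive endoderm stem cell culture. Wild-type E14 cells grown with LIF appear as TG2A ES (titled TG2A.NG.PB.ESC) and as E14 ES (titled ESC, 3 libraries). Ezh2 knockout clone 10 was grown in serum and LIF (3 libraries) or in serum, 2i and LIF, where 2i is a pair of kinase inhibitors; the labels spell the genotype as Eeh2-null and Eeh2-rescued. The rescued cells are that clone with Ezh2 expressed again, in serum and LIF. TG2A cells in serum, 2i and LIF are the wild-type group for the knockout under 2i. The knockout is 1 clone, and the labels do not say that replicate libraries come from separate cultures. The p-values thus measure the spread between replicate libraries pooled over all 10 groups, which may be technical.

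Complex I takes electrons from NADH and complex II from succinate. Both pass them to coenzyme Q, complex III passes them on to cytochrome c, and complex IV gives them to oxygen. Complexes I, III and IV move protons across the inner membrane, and complex V, the ATP synthase, makes ATP as protons flow back. Complex II is wholly nuclear, whereas the other complexes are built from subunits of both genomes. Mitochondrial DNA is transcribed as long precursors from both strands, with mt-Nd6 the only protein gene on the light strand. Mouse embryonic stem cells are known to draw on both glycolysis and respiration.

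Some mitochondrial genes have near-identical copies in a block of annotated genes on chromosome 1, and the deposited table lists gene and copy as separate rows. The start of mt-Nd3, a complex I subunit, is shown with its copy because they hold 1 difference between them. Both are written in the direction of the gene, in GRCm38, with the base that differs in capitals; the copy lies at chr1:24612775-24613119 on the minus strand. The difference is T3C, counted from 1 at the first base of the gene, with the base of mt-Nd3 first.
mt-Nd3: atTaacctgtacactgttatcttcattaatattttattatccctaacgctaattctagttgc
Gm28438: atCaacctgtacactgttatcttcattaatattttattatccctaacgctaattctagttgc
Outside that base the 345 aligned bases are the same, 99.71% identity in all. A read from these bases cannot be told apart by its letters. Over their aligned bases, mt-Atp6 and Gm10925 (678 bases), mt-Co2 and Gm28661 (681), mt-Co3 and Gm28437 (783) and mt-Nd4l and Gm10222 (294) are 100% identical.

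Nuclear respiratory genes are known for promoters that bind NRF1, ETS factors such as GABP, and YY1. The RefSeq table of GRCm38.p6 holds promoter windows, from 250 bases before to 50 bases after the start, for 67 of the 82 nuclear genes. The letters GCGCATGC (NRF1), on either strand, occur in the windows of 10 of these genes, or 14.9%, against 3.0% of 27025 genes. CCGGAAG (ETS) occurs in 17 genes, or 25.4%, against 9.9%, and AAGATGGC (YY1) in 10 genes, or 14.9%, against 3.2%. At least 1 of these motifs is held by 31 genes, or 46.3%, against 14.9% of all genes, and 6 hold 2 or more of the motifs. The 27025 genes were not filtered by level, unlike the nuclear genes here, so the groups are not matched for expression. The 120 bases before the start are shown for Atp5k and Ndufa11, a subunit each of complexes V and I, and for Sdhd, the membrane anchor of complex II, since the comparisons that follow turn on these genes. Capitals mark the motif, an overlapping pair of NRF1 matches in Atp5k and Ndufa11 and 1 ETS match on the other strand in Sdhd. Atp5k lies at chr5:108434400-108434519 on the minus strand, Ndufa11 at chr17:56717642-56717761 on the plus strand and Sdhd at chr9:50603850-50603969 on the minus strand.
Atp5k: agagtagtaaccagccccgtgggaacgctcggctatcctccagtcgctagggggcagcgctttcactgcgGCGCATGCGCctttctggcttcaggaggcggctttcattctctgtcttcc
Ndufa11: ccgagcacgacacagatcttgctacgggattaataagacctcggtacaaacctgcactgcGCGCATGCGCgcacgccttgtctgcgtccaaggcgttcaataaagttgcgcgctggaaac
Sdhd: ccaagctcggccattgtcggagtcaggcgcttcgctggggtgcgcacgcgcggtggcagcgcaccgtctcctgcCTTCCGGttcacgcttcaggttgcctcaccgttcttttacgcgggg

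Library totals ran from 13586043 to 26280949 counts. Ezh2 had 2, 1 and 1 counts in the knockout libraries in serum and LIF and 6 and 0 under 2i. It was at 495 and 533 CPM in the rescued libraries, above the 173, 181 and 184 CPM in E14 ES. The summed level of 12 primitive endoderm markers was 13690 to 23800 CPM in the primitive endoderm stem cell groups and 336 to 902 CPM in C57 ES and TG2A ES. It was 2399 to 2780 CPM in the knockout, 330 to 364 CPM in E14 ES and the rescued cells, 623 and 633 CPM in the knockout under 2i and 223 and 231 CPM in TG2A under 2i. The sum of 15 fibroblast markers was uneven, at 30.7 and 2103 CPM in C57 PrE, 38.7 and 484 CPM in C57 ES, 28.2 and 169 CPM in EPZ line 1 and 60.2 and 280 CPM in EPZ line 2, against 11.1 to 57.3 CPM elsewhere. Of the 15, 4 to 8 were above 1 CPM in every library of each of these 4 groups, and 0 were at 0 in every library of either C57 group or EPZ line 2 and 2 were in EPZ line 1. The sum of 15 macrophage markers was 21.5 to 256 CPM, and that of 10 pluripotency markers 624 to 1261 CPM in the primitive endoderm stem cell groups and 3542 to 5946 CPM in the others. The part of these cells in the results was not tested. The libraries also fell into sets that the labels do not mention. mt-Atp8 was at 52.6 to 85.5 CPM in the 10 C57, TG2A ES and EPZ libraries and at 4.70 to 13.4 CPM in the other 12. The share of counts on transcripts under 300 bases, without mitochondrial genes, was 0.0089% to 0.0109% in the first set and 0.00267% to 0.00382% in the second. Under 500 bases the sets overlapped, at 0.403% to 0.647% and 0.286% to 0.731%. Comparisons of the EPZ lines, of the C57 cells and of the knockout with E14 ES or the rescued cells stay within a set, as does the knockout comparison under 2i.

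The mitochondrial genes and their copies together took a larger share of the counts than the nuclear genes in every library. That share was 4.09% and 4.31% in C57 PrE and 2.64% and 3.39% in C57 ES. It was 3.70% and 4.24% in EPZ line 1, 4.74% and 3.95% in EPZ line 2 and 3.46% and 3.89% in TG2A ES. The groups did not overlap for the C57 cells or for EPZ line 2, and they overlapped for EPZ line 1. Against TG2A ES, the 82 nuclear genes went the other way in the EPZ lines. They took 1.20% and 1.34% of the counts in TG2A ES, 0.918% and 0.989% in EPZ line 1 and 1.07% and 0.998% in EPZ line 2. In E14 ES, of the other library set, they took 0.953%, 0.979% and 1.07%, which overlapped with both EPZ lines. In C57 cells the nuclear share was 0.882% and 0.919% in PrE and 0.935% and 0.839% in ES, and the groups overlapped. The mitochondrial total was thus 4.03 to 4.29 times the nuclear one in EPZ line 1, 3.95 to 4.44 times in EPZ line 2 and 4.64 to 4.70 times in C57 PrE, against 2.89 and 2.90 times in TG2A ES and 2.82 and 4.04 times in C57 ES. In E14 ES the mitochondrial total was 3.50, 3.08 and 2.40 times the nuclear one.

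In the knockout in serum and LIF both totals were above those of E14 ES, with no overlap. The nuclear genes took 1.36%, 1.46% and 1.45% of the counts in the knockout and 0.953%, 0.979% and 1.07% in E14 ES, while the rescued libraries stood at 0.995% and 1.01%. The mitochondrial share with copies was 4.01%, 4.07% and 4.09% in the knockout, 3.34%, 3.02% and 2.57% in E14 ES and 3.44% and 3.33% in the rescued cells. Under 2i the nuclear share was 1.16% and 1.09% in the knockout and 1.17% and 1.12% in TG2A, which overlapped. The mitochondrial share with copies was 3.15% and 3.13% against 2.72% and 2.83%. Without copies, the mitochondrial ratio of the knockout to TG2A under 2i was 1.10 on shares and 0.988 on scaled CPM. Its direction thus turned with the scaling. In bulk libraries, fewer cells of a type and less RNA per cell cannot be told apart.

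**Figure D1:**
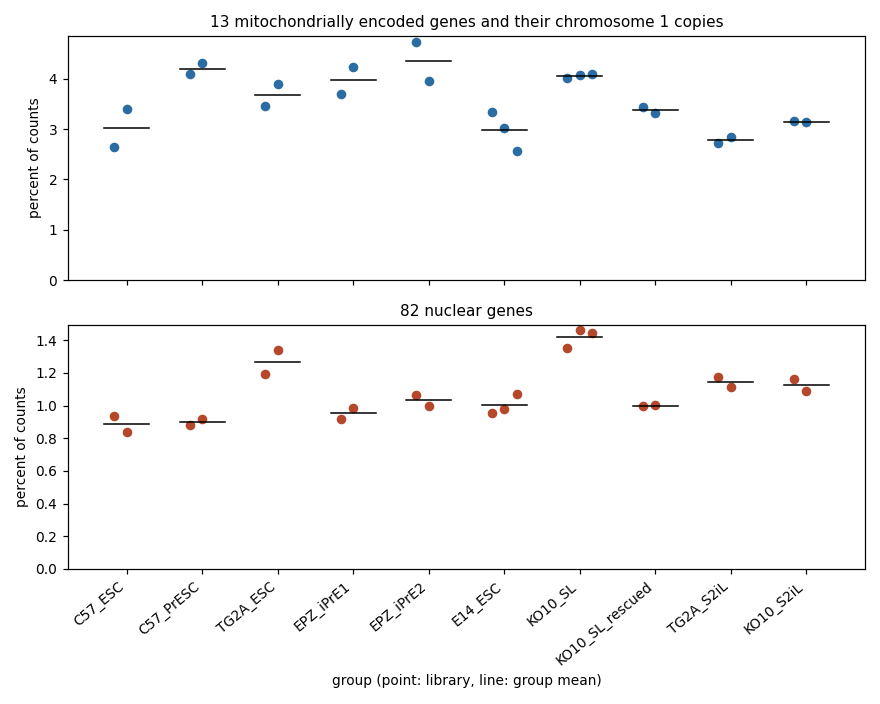
Percent of each library's counts on the 13 mitochondrial genes with their chromosome 1 copies and on the 82 nuclear genes; each point is 1 library and each line a group mean, with PrESC and iPrE for the primitive endoderm stem cell groups, KO10 for the knockout clone, SL for serum and LIF and S2iL for serum, 2i and LIF. The nuclear share is 1.36% to 1.46% in the knockout in serum and LIF and 0.953% to 1.07% in E14 ES.

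The copies on chromosome 1 took most of the counts of 5 mitochondrial genes. Gm10925 averaged 1799 CPM over the 22 libraries and mt-Atp6, a subunit of the proton channel of complex V, 145 CPM. Gm28661 averaged 4137 CPM and mt-Co2, a catalytic subunit of complex IV, 190.2 CPM. For mt-Co3 the copy Gm28437 was at 4270 CPM and the gene at 126.9 CPM. The copy was above the gene in 22 of 22 libraries for these 3 genes and also for mt-Nd3 (37.04 CPM, copy 138 CPM) and mt-Nd4l (16.2 CPM, copy 42.7 CPM). The split moved between libraries: the gene's share of the pair ran from 0.632% to 13.6% for mt-Co2, from 0.0011% to 7.16% for mt-Co3 and from 3.40% to 15.7% for mt-Atp6. The copies of mt-Co1 (Gm29216) and mt-Nd4 (Gm28439) were below their gene in every library, and mt-Co1 held 97.1% to 100% of its pair. Where a result names 1 of the 5 genes whose copy leads, the value with the copy added is given too.

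**Figure D2:**
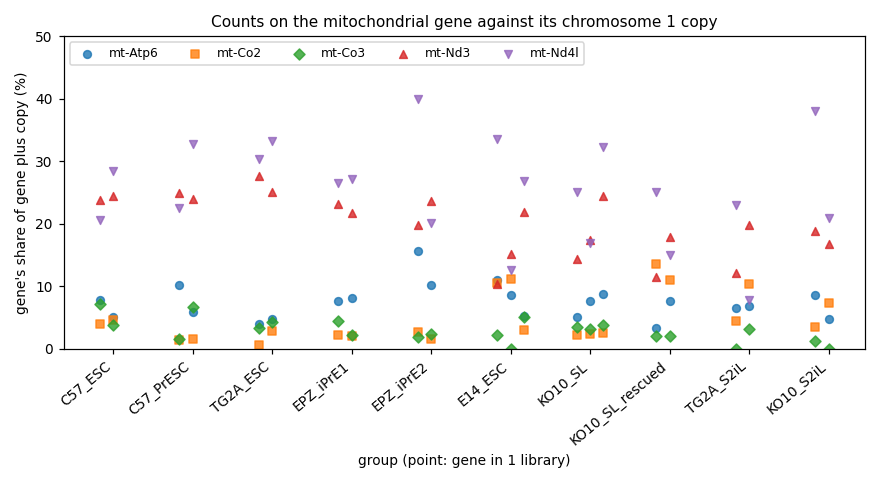
The gene's share, in percent, of the counts of a mitochondrial gene plus its chromosome 1 copy; each point is 1 of 22 libraries. Shown are mt-Atp6, mt-Co2, mt-Co3, mt-Nd3 and mt-Nd4l. Each of these genes holds the smaller part of its pair in every library, and mt-Co3 lies between 0.0011% and 7.16%.

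mt-Co1, the core catalytic subunit of complex IV, was higher in all primitive endoderm stem cell groups than in their ES cells. It was at 19190 and 19710 CPM in C57 PrE and at 8705 and 12560 CPM in C57 ES. The EPZ lines had 14950 and 17720 CPM (line 1) and 20170 and 16610 CPM (line 2), against 10700 and 11440 CPM in TG2A ES. The groups did not overlap in any of these comparisons. The log2 change of mt-Co1 was 0.56 (SE 0.156, adjusted p = 0.00513) in EPZ line 1, 0.73 (SE 0.156, adjusted p = 0.000645) in EPZ line 2 and 0.87 (SE 0.156, adjusted p = 0.000143) in C57 PrE, all by edgeR's quasi-likelihood test over 17547 genes. The call in EPZ line 1 was lost without its replicate 2, at 0.44.

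Few other mitochondrial genes were called in these cells. In EPZ line 1, mt-Co1 was the only 1 of 13 called higher and 0 were lower, where 27.9% of all tested genes were called higher and 32.2% lower; at an unadjusted p under 0.05, 2 were higher and 1 was lower, and DESeq2 called 1 each way. With the copies added, mt-Nd3 was called lower there (-0.64, SE 0.206, adjusted p = 0.0134), for 1 higher and 1 lower in all. In EPZ line 2, 4 of 13 were higher and 0 lower, against 28.8% and 33.4% of all genes. Beside mt-Co1 these were mt-Nd2 (0.45) and mt-Nd5 (0.50), membrane subunits of complex I, and mt-Atp6 (1.29). No mitochondrial gene reached an unadjusted p under 0.05 downwards in EPZ line 2, and DESeq2 called 0 lower. mt-Atp6 was at 387.2 and 220.6 CPM in EPZ line 2 and at 98.81 and 149 CPM in TG2A ES, but with Gm10925 added its value was -0.25. mt-Nd5 was at 3294 and 2522 CPM in EPZ line 2 and at 1695 and 2415 CPM in TG2A ES, and its call was lost without TG2A ES replicate 1 (0.29), as were those of mt-Nd2 (0.37) and mt-Atp6 (1.05). Without EPZ line 2 replicate 1 those of mt-Nd5 (0.29) and mt-Atp6 (0.83) were lost. In C57 PrE, 2 of 13 were higher, mt-Co1 and mt-Nd2 (0.58), and 0 lower, against 27.3% and 33.4% of all genes; at an unadjusted p under 0.05, 4 were higher and 0 lower, and DESeq2 called 2 higher and 0 lower. With the copies added, 4 were higher and 1 lower in C57 PrE: mt-Co2 (0.30) and mt-Co3 (0.43) joined the rises and mt-Nd3 was called lower (-0.51, adjusted p = 0.0406). In EPZ line 2 the counts with copies were 4 and 0, with mt-Nd4l (0.59) in place of mt-Atp6. mt-Nd2 was at 1585 and 1722 CPM in C57 PrE and at 977.1 and 1230 CPM in C57 ES.

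Among the nuclear genes, falls outnumbered rises in the EPZ lines, and rises outnumbered falls in C57 PrE. In EPZ line 1, 7 of 82 rose and 50 fell, with a median log2 change of -0.46 against -0.07 over all tested genes. In EPZ line 2, 10 rose and 31 fell, with a median of -0.27 against -0.11. In C57 PrE, 24 rose and 9 fell, with a median of 0.14 against -0.09. In the same order, all genes with transcripts of 500 to 1000 bases had medians of -0.32, -0.35 and -0.09. The 42 nuclear genes of that length had -0.47, -0.33 and 0.18. At 1000 to 2000 bases the medians were -0.32, -0.34 and -0.07 over all genes and -0.29, -0.20 and 0.14 for 24 nuclear genes. The part of transcript length in these counts was not tested. Of all genes, 27.9% rose and 32.2% fell in EPZ line 1, and 28.8% and 33.4% in EPZ line 2. In C57 PrE these shares were 27.3% and 33.4%. The 31 falls in EPZ line 2 and the 24 rises in C57 PrE, of 82 genes each, were near these shares. Further from them were the rises in both EPZ lines, the 50 falls in EPZ line 1 and the 9 falls in C57 PrE. The EPZ comparisons share the TG2A ES libraries. By complex, the counts higher and lower in EPZ line 1 were 1 and 24 of 37 in complex I, 1 and 2 of 4 in complex II, 1 and 4 of 8 in complex III, 3 and 8 of 16 in complex IV and 1 and 12 of 17 in complex V. In EPZ line 2 they were 3 and 17, 1 and 1, 2 and 2, 3 and 4, and 1 and 7 in the same order, and in C57 PrE 11 and 2, 2 and 0, 2 and 1, 4 and 3, and 5 and 3. Without TG2A ES replicate 2 the 57 calls in EPZ line 1 became 36, and in a fit of the C57 libraries alone the 33 calls in C57 PrE became 12.

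**Figure D3:**
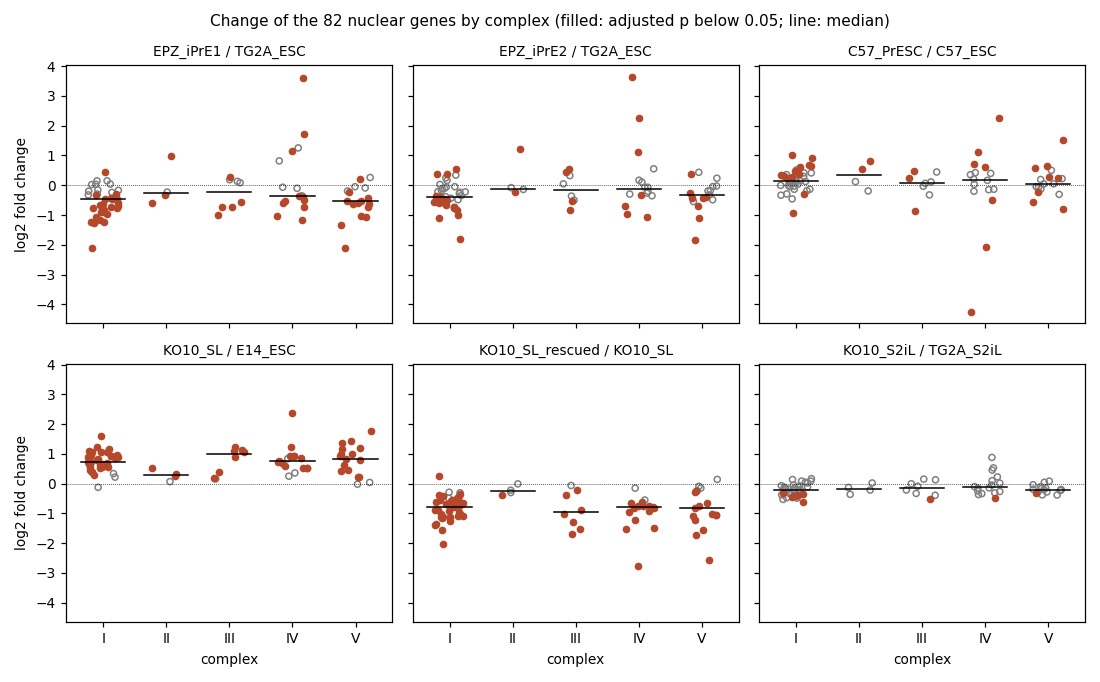
Log2 change of each of the 82 nuclear genes, grouped by complex, in 6 comparisons, with positive values higher in the first-named group. Filled points were called, open points were not, and the black line is the median of a complex. Medians are -0.46 in EPZ line 1, 0.14 in C57 PrE and 0.75 in the knockout against E14 ES.

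Complex II held the clearest rise. Sdhd, which anchors the complex in the membrane, was at 194.2 and 229.1 CPM in EPZ line 1, 262.1 and 231.4 CPM in EPZ line 2 and 93.19 and 121.2 CPM in TG2A ES. In C57 cells it was at 174.2 and 175.6 CPM in PrE and 105.7 and 95.2 CPM in ES. Every primitive endoderm stem cell library was above every ES library, and the log2 changes were 0.98 (SE 0.113, adjusted p = 1.19e-06), 1.20 (SE 0.113, adjusted p = 1.12e-07) and 0.80 (SE 0.113, adjusted p = 1.18e-05) in EPZ line 1, EPZ line 2 and C57 PrE. The other subunits gave other values. Sdhc, the other membrane anchor, fell in EPZ line 1 (-0.59, SE 0.159) and rose in C57 PrE (0.54, SE 0.160); the calls were lost without EPZ line 1 replicate 1 (-0.42) or TG2A ES replicate 2 (-0.38), and without C57 ES replicate 2 (0.35). Sdhb, the iron-sulfur subunit, fell by 0.31 on the log2 scale in EPZ line 1, a call lost without TG2A ES replicate 2 (-0.15), and Sdha, the flavoprotein that oxidises succinate, was not called there (-0.23, adjusted p = 0.0909).

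In complex I the largest fall was that of Ndufa11, an accessory subunit of the membrane arm. It was at 20.04 and 22.94 CPM in EPZ line 1 and at 28.16 and 25.33 CPM in EPZ line 2, against 86.95 and 98.06 CPM in TG2A ES. C57 PrE had 22.07 and 24.96 CPM and C57 ES 46.68 and 43.51 CPM. The primitive endoderm stem cell groups thus lay close together, from 20.04 to 28.16 CPM, below all ES libraries. The log2 changes were -2.11 (SE 0.148, adjusted p = 3.94e-09), -1.79 (SE 0.145, adjusted p = 1.87e-08) and -0.94 (SE 0.144, adjusted p = 2.93e-05). Ndufa6, an accessory subunit of the peripheral arm, rose, by 0.44 (adjusted p = 0.0436), 0.54 (adjusted p = 0.0158) and 0.61 in the same order. The EPZ line 1 call for Ndufa6 was lost without any 1 of the 4 libraries (0.36 to 0.49), and that in EPZ line 2 without its replicate 1 (0.35) or TG2A ES replicate 1 (0.54). Ndufs7, an iron-sulfur subunit of the core, went from 32.75 and 21.76 CPM in C57 ES to 56.33 and 53.11 CPM in C57 PrE (1.01, SE 0.171, adjusted p = 8.42e-05). Ndufb8 rose there too, from 62.58 and 47.5 CPM to 98.84 and 109.9 CPM (0.92).

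In complex III, Uqcrfs1, the Rieske iron-sulfur protein, rose by 0.28 (adjusted p = 0.0135), 0.55 (adjusted p = 5.35e-05) and 0.26 in EPZ line 1, EPZ line 2 and C57 PrE. Its call in EPZ line 1 was lost without replicate 2 of that line (0.16) or of TG2A ES (0.27), and that in C57 PrE without C57 ES replicate 2 (0.15) or either PrE replicate (0.28 and 0.23). Uqcrb, a small subunit that binds ubiquinone, fell by 0.75, 0.54 and 0.88 on the log2 scale. Uqcrq, another small subunit, went from a mean of 110.9 CPM in TG2A ES to 55.47 CPM in EPZ line 1 and was called lower (adjusted p = 0.000532). Uqcrc2, a core protein of the matrix side, rose by 0.43 in EPZ line 2 and by 0.46 (SE 0.0957, adjusted p = 0.000502) in C57 PrE. The complex thus held rises and falls in each of these cells.

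In complex V the c-ring gene Atp5g1 fell furthest. The c-ring is the rotor that protons turn, and Atp5g1, Atp5g2 and Atp5g3 encode the same mature subunit with different import signals. Atp5g1 was at 71.03 and 73.1 CPM in EPZ line 1 and 99.65 and 74.61 CPM in EPZ line 2, against 289.7 and 331 CPM in TG2A ES. It was at 78.33 and 73.76 CPM in C57 PrE and 109 and 155.8 CPM in C57 ES. The groups did not overlap, with log2 changes of -2.11 (SE 0.152, adjusted p = 5.51e-09), -1.83 (SE 0.15, adjusted p = 2.18e-08) and -0.80 (SE 0.147, adjusted p = 0.000182). Atp5g3 fell by 0.44 and 0.27 in the EPZ lines and was not called in C57 PrE (0.05). Atp5g2 was not called in the EPZ lines (-0.05 and -0.04) and rose by 0.24 (adjusted p = 0.0485) in C57 PrE. The Atp5g3 call in EPZ line 2 was lost without its replicate 2 (-0.15) or TG2A ES replicate 2 (-0.20), and the Atp5g2 call without 3 of the 4 C57 libraries, each in turn (0.17 to 0.29). The subunit of the membrane part Atp5j2 fell by 1.33, 1.12 and 0.58, and Atp5c1, the central stalk gamma subunit, rose by 0.22, 0.38 and 0.26. The call for Atp5j2 in C57 PrE was lost without C57 ES replicate 1 (-0.50), C57 ES replicate 2 (-0.61) or C57 PrE replicate 1 (-0.44). The call for Atp5c1 in EPZ line 1 was lost without its replicate 2 (0.12) or without TG2A ES replicate 1 (0.21).

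Atp5e, the epsilon subunit of the central stalk, was higher in the C57 cells than in all others, a difference of strain or line that was not tested. It was at 37.62 and 29.48 CPM in C57 ES and at 97.15 and 95.69 CPM in C57 PrE, a log2 change of 1.52 (SE 0.239, adjusted p = 3.72e-05). In all libraries of the E14-derived groups it lay between 1.03 and 4.53 CPM. Neither group of C57 cells overlapped with any other group.

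The change in the EPZ lines was set against that in C57 PrE by a test of the difference. It was lower for 37 of the 82 nuclear genes and higher for 2, against 16.3% and 18.8% of all genes, with a median difference of -0.49 on the log2 scale against 0.03. By complex, 20 of 37 genes of complex I, 1 of 4 of complex II, 1 of 8 of complex III, 7 of 16 of complex IV and 8 of 17 of complex V were lower. Ndufa2 and Ndufa1, accessory subunits of complex I, differed by -1.41 (SE 0.288) and -1.38 (SE 0.335), and Atp5md by -1.47 (SE 0.297). Without TG2A ES replicate 2 the 39 calls became 25. For the mitochondrial genes the test called 0 higher and 0 lower; at an unadjusted p under 0.05, 2 were lower and 0 higher, and DESeq2 called 0. Sdhd (0.29, adjusted p = 0.143) and Cox7a1 (-0.25, adjusted p = 0.827) did not pass the test of the difference, while Atp5g1 (-1.17) and Ndufa11 (-1.01) did, although neither passed with E14 ES as the wild type (-0.37 and -0.46), where Sdhd did (0.55).

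The counts of the nuclear genes in the EPZ lines turned with the choice of wild-type cells. Against E14 ES, which belongs to the other set of libraries, the median was 0.19 in EPZ line 1 and 0.34 in EPZ line 2. Against E14 ES, 32 rose and 12 fell in EPZ line 1 (28.8% and 32.2% of all genes) and 41 rose and 3 fell in EPZ line 2 (29.3% and 33.1%). In EPZ line 1, 6 genes were called higher and 12 lower against both wild types, and 9 changed from lower to higher. In EPZ line 2 these counts were 9, 3 and 8. The shares of all genes called in these ways were not counted, and both tests use the same EPZ libraries. Against E14 ES, Sdhd rose by 1.24 and 1.46 in the EPZ lines, Cox7a1 by 3.23 and 3.74, and mt-Co1 by 0.65 and 0.82. Atp5g1 fell by 1.31 and 1.04, Ndufa11 by 1.56 and 1.24 and Cox5a by 0.64 and 0.53, so these 6 genes kept their direction and call. The median difference between the EPZ change and the C57 change was 0.17 against E14 ES, with 15 genes higher and 3 lower, against 17.6% and 13.8% of all genes.

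Complex IV holds subunits that exist in alternative forms, and these did not move as 1 group. Cox7a1, the form best known from heart and skeletal muscle, was at 15.67 and 6.631 CPM in EPZ line 1 and 12.36 and 19.34 CPM in EPZ line 2, against 3.642 and 3.04 CPM in TG2A ES. It was at 4.197 and 10.76 CPM in C57 PrE and 1.643 and 1.514 CPM in C57 ES. The log2 changes were 1.74 (SE 0.466, adjusted p = 0.00404), 2.24 (SE 0.469, adjusted p = 0.000541) and 2.24 (SE 0.489, adjusted p = 0.0008), with no overlap. The call in EPZ line 1 was lost without its replicate 1 (0.96). In each primitive endoderm stem cell group the library with the higher Cox7a1 level also had the higher fibroblast marker sum. These sums were 169 against 28.2 CPM in EPZ line 1, 280 against 60.2 CPM in EPZ line 2 and 2103 against 30.7 CPM in C57 PrE. TG2A ES went the same way, at 31.5 against 11.1 CPM. C57 ES went the other way, with 38.7 CPM in the library with more Cox7a1 and 484 CPM in the other. The part of these markers was not tested. Its general counterpart Cox7a2 fell by 0.73 and 0.71 in the EPZ lines, calls lost without TG2A ES replicate 2 (-0.43 and -0.42), and was not called in C57 PrE (0.03, adjusted p = 0.917). Cox7a2l, which takes part in joining complexes III and IV and was picked out after its values were seen, rose by 1.16, 1.11 and 0.60 in EPZ line 1, EPZ line 2 and C57 PrE. As a level in CPM per kilobase of transcript, Cox7a1 stood at 28.4 in EPZ line 1 and 40.3 in EPZ line 2, and Cox7a2 at 37.3 and 38.0. In TG2A ES the levels on that scale were 8.50 for Cox7a1 and 62.0 for Cox7a2.

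Ndufa4l2, a relative of Ndufa4 that is known to be induced in low oxygen, moved in opposite directions. It was at 24.42 and 13.03 CPM in EPZ line 1 and 14.9 and 23.55 CPM in EPZ line 2, against 1.717 and 1.363 CPM in TG2A ES, and rose by 3.60 (SE 0.607, adjusted p = 7.48e-05) and 3.64 (SE 0.607, adjusted p = 6.39e-05). In C57 cells it went from 19.55 and 7.572 CPM in ES to 0.2708 and 1.105 CPM in PrE (-4.24, SE 0.672, adjusted p = 4.13e-05). The test of the difference gave 7.86 (SE 0.882, adjusted p = 5.63e-06). TG2A ES stood apart from the other E14-derived libraries, which lay between 6.054 and 24.42 CPM, and against E14 ES neither EPZ line was called (0.80, adjusted p = 0.148, and 0.84, adjusted p = 0.126), while the difference between the EPZ and C57 changes was 5.07. Ndufa4 itself was not called in EPZ line 2 (-0.07) or C57 PrE (0.21) and fell by 0.36 in EPZ line 1, a call lost without that line's replicate 1 (-0.32) or TG2A ES replicate 2 (-0.19).

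The other alternative subunits were low or uncertain. Cox4i2, also known as a form of low oxygen and lung, was at 2.172 and 0.3029 CPM in C57 ES and 0.4062 and 0.1745 CPM in C57 PrE, and these groups overlapped. It was called lower (-2.09, SE 0.757, adjusted p = 0.0251), but without C57 ES replicate 1 the value was -0.06 and the difference between the EPZ and C57 changes went from 2.99 to 0.99. Without C57 PrE replicate 2 it was -1.59 and no longer called. Cox6b2, the testis form of Cox6b, was not called in EPZ line 1 (0.82), EPZ line 2 (-0.35) or C57 PrE (0.16). Cox8a, the general form of Cox8, rose from 118.2 and 79 CPM to 213.2 and 214.4 CPM in C57 PrE (1.12, SE 0.219, adjusted p = 0.000319) and was not called in the EPZ lines (-0.10 and 0.17). Cox5a, a matrix-side subunit, fell by 1.17 (SE 0.146) and 1.05 (SE 0.145) in the EPZ lines, from 143.8 and 182.2 CPM in TG2A ES to 66.89 and 78.09 CPM and 87.28 and 70.01 CPM. Cox7c fell by 1.02, 0.96 and 0.48 in EPZ line 1, EPZ line 2 and C57 PrE, the last not called without C57 ES replicate 1 (-0.30) or C57 PrE replicate 1 (-0.44).

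**Figure D4:**
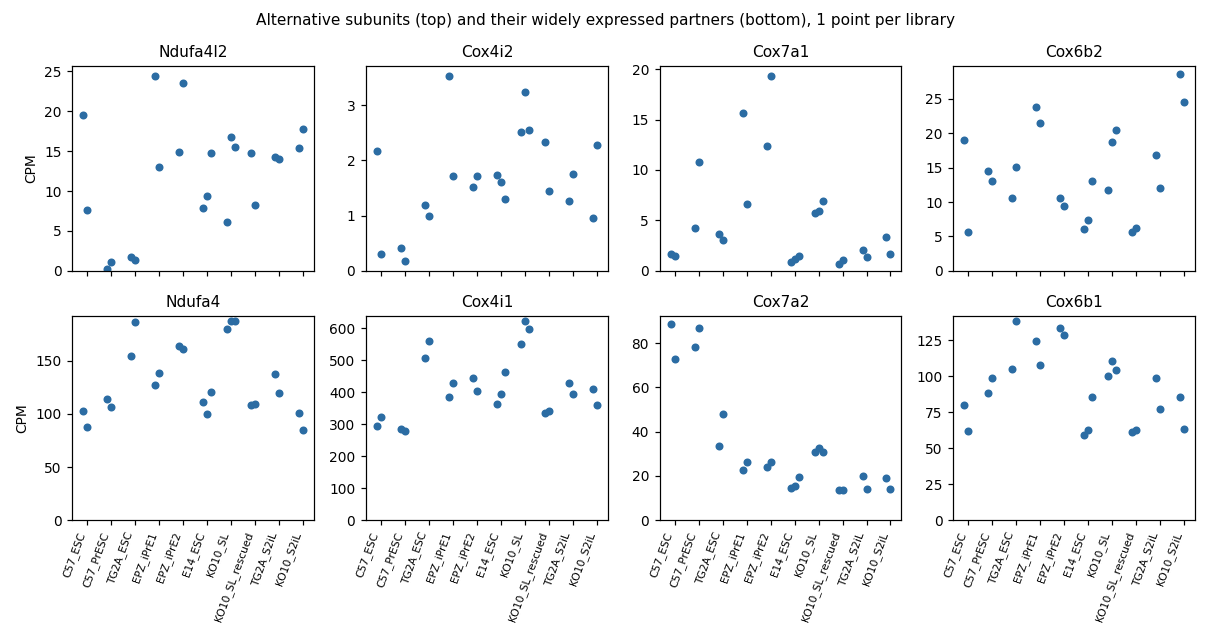
CPM of alternative complex IV subunits (top row: Ndufa4l2, Cox4i2, Cox7a1, Cox6b2) and of their general counterparts (bottom row: Ndufa4, Cox4i1, Cox7a2, Cox6b1), each panel on its own axis; each point is 1 library. Ndufa4l2 is at 13.03 to 24.42 CPM in the EPZ lines and at 0.2708 and 1.105 CPM in C57 PrE.

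In the Ezh2 knockout in serum and LIF, nearly all nuclear genes rose. Of 82, 72 were higher and 0 lower than in E14 ES, against 25.8% and 22.7% of all genes, and the median log2 change was 0.75 against 0.07; at an unadjusted p under 0.05, 74 were higher and 0 lower, and DESeq2 called 72 and 0. The rises took in 34 of 37 genes of complex I, 3 of 4 of complex II, 7 of 8 of complex III, 13 of 16 of complex IV and 15 of 17 of complex V. In 75 of the 82 genes the knockout and E14 ES libraries did not overlap, as they did not in 66.9% of all genes.

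Large rises occurred in complexes I, III, IV and V. Atp5k, the e subunit of the ATP synthase, was at 10.89, 11.77 and 13.99 CPM in the knockout and 2.635, 2.391 and 5.449 CPM in E14 ES (1.78, SE 0.256, adjusted p = 2.95e-05). Ndufa3 of complex I was at 10.89, 11.36 and 12.21 CPM against 2.755, 2.989 and 5.449 CPM (1.60, SE 0.288, adjusted p = 0.000234). Uqcr11 of complex III was at 61.19, 72.54 and 72.29 CPM against 22.58, 25.17 and 38.78 CPM (1.25, SE 0.215). For each of these genes E14 ES replicate 3 was the highest of its group and the knockout libraries were all above it. Cox7c rose by 1.23 (SE 0.132), Atp5md by 1.43 (SE 0.188) and Cox7a1 by 2.39 (SE 0.406, adjusted p = 0.000144), the latter from 0.8983, 1.136 and 1.456 CPM to 5.688, 5.925 and 6.953 CPM. In the c-ring, Atp5g1 rose by 1.21 (SE 0.12), Atp5g3 by 1.15 (SE 0.0816) and Atp5g2 by 0.23 (SE 0.0813), the last not called without 4 of the 6 libraries, each in turn (0.17 to 0.23). Atp5g1 was at 391.7, 419.9 and 432.8 CPM in the knockout and 177.7, 173.4 and 184.9 CPM in E14 ES.

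Some large subunits were not called higher. Sdha was not called (0.07, adjusted p = 0.56), nor were Ndufs1, the largest core subunit of complex I (-0.12, adjusted p = 0.222), and Atp5a1, the alpha subunit of the ATP synthase (-0.02, adjusted p = 0.864). Other large subunits were called higher, among them Atp5b, the beta subunit of the ATP synthase (0.21, SE 0.0804), and Ndufv1 of complex I (0.67, SE 0.0871). All these genes were picked out after their values were seen. Sdhb rose by 0.52 (SE 0.0774), Sdhc by 0.33 (adjusted p = 0.045) and Sdhd by 0.26 (adjusted p = 0.0292); the call for Sdhc was lost without each of 5 of the 6 libraries in turn, at 0.27 to 0.32, and kept without E14 ES replicate 3.

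The change in the knockout went with transcript length over all genes. The nuclear genes have a median transcript of 849.5 bases, against 2781 bases over the tested genes, and 49 of 82 are no longer than 1000 bases. In the knockout against E14 ES the median log2 change over all genes was 1.04 under 500 bases, 0.62 from 500 to 1000, 0.36 from 1000 to 2000, 0.03 from 2000 to 4000 and -0.32 above 4000. The medians of the nuclear genes in these bins were 1.22, 0.88, 0.53, 0.31 and 1.05, for 7, 42, 24, 7 and 2 genes. With an offset for transcript length in the fit, 41 genes were called higher and 3 lower in place of 72 and 0. The length trend in E14 ES against TG2A ES ran the other way, from -0.91 under 500 bases to 0.30 above 4000. The part of transcript length in the knockout result was not tested beyond the offset.

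**Figure D5:**
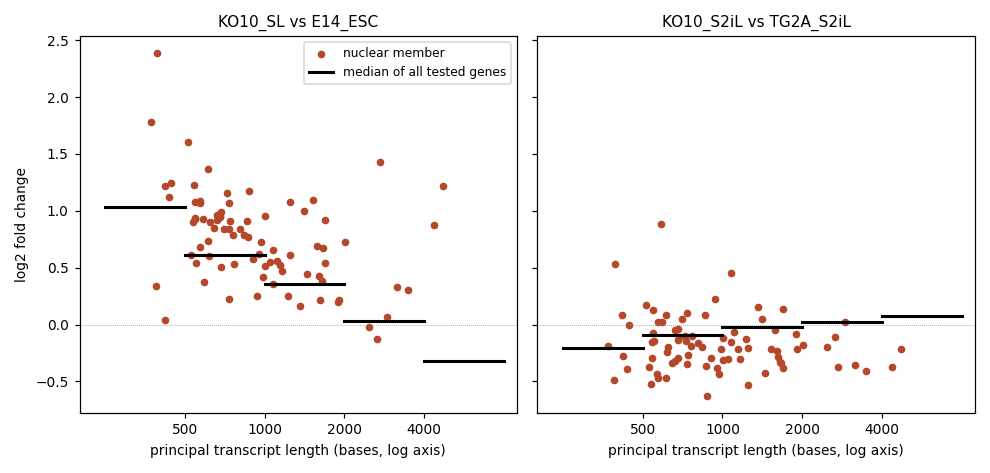
Log2 change against transcript length in bases (log axis) for the 82 nuclear genes, in the knockout against E14 ES and in the knockout against TG2A, both under 2i; each black line is the median of all tested genes in a length bin. In serum and LIF the all-gene median goes from 1.04 to -0.32 with length, and under 2i from -0.20 to 0.08.

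The knockout count also turned with the wild-type cells. Against TG2A ES, of the other library set, 8 nuclear genes were called, 6 higher and 2 lower, with a median of 0.12, against 13.6% and 14.1% of all genes. The 5 genes higher against both wild types were Atp5d (0.61 against TG2A ES), Atp5g1 (0.42), Atp5g3 (0.39), Ndufa11 (0.39) and Ndufb9 (0.35), named for this count after their values were seen. The share of all genes higher against both was not counted. Atp5k went from higher to lower. Its level was 20.4 and 26.99 CPM in TG2A ES, above the knockout, and 2.635 to 5.449 CPM in E14 ES, below it.

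Of the mitochondrial genes, 7 of 13 rose in the knockout against E14 ES and 0 fell, against 25.8% and 22.7% of all genes. At an unadjusted p under 0.05 the counts were also 7 and 0, as they were with DESeq2. mt-Nd6, on the light strand, was at 257, 419 and 412.1 CPM in the knockout and 109.7, 94.93 and 139 CPM in E14 ES (1.66, SE 0.196, adjusted p = 4.05e-06). mt-Nd3 was at 33.68, 54.39 and 77.93 CPM against 10, 12.2 and 24.45 CPM (1.81, SE 0.31, adjusted p = 0.000149), and with its copy added the change was 1.58. The knockout libraries were above all E14 ES libraries for both genes. mt-Cytb, the cytochrome b of complex III, rose by 0.57 (SE 0.135), mt-Nd1 by 0.59, mt-Nd4 by 0.59, mt-Nd5 by 0.44 and mt-Nd2 by 0.27 (adjusted p = 0.0491). The call for mt-Nd2 was lost without each library in turn but E14 ES replicate 1, at 0.15 to 0.31. Without E14 ES replicate 3 those of mt-Nd4 (0.47) and mt-Nd5 (0.35) were lost too, and that of mt-Nd5 also without knockout replicate 2 (0.39) or 3 (0.37). With the copies added, 10 genes were called higher, among them mt-Atp6 (0.69), mt-Co2 (0.74) and mt-Co3 (0.75). Against TG2A ES, 0 mitochondrial genes were called higher and 2 lower, against 13.6% and 14.1% of all genes.

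The rescued cells, with Ezh2 above its level in E14 ES, were compared with the knockout and with E14 ES. Against the knockout, 68 nuclear genes fell and 1 rose, against 24.1% and 20.9% of all genes, with a median of -0.78 against -0.11. The all-gene median on rescue ran from -1.31 under 500 bases of transcript to 0.31 above 4000, and with the length offset 37 nuclear genes fell and 4 rose. By complex, 33 of 37, 1 of 4, 7 of 8, 14 of 16 and 13 of 17 genes of complexes I to V fell. Atp5k was at 2.329 and 1.768 CPM in the rescued cells (-2.57, SE 0.317, adjusted p = 8.12e-06), Ndufa3 at 3.604 and 2.089 CPM (-2.01, SE 0.344) and Cox7a1 at 0.7209 and 1.072 CPM (-2.78, SE 0.492). For these genes the rescued libraries lay below every knockout library. Ndufs1 was the gene that rose, from 145.8, 130.3 and 127.7 CPM to 161 and 164 CPM (0.27, SE 0.0896, adjusted p = 0.0207), and was not called without rescued replicate 1 (0.31) or 2 (0.24). In complex II only Sdhb was called (-0.38, SE 0.0871; -0.31 and not called without rescued replicate 1), while Sdhc (-0.30, adjusted p = 0.105), Sdhd (-0.22, adjusted p = 0.0944) and Sdha (-0.01, adjusted p = 0.972) did not pass.

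Among the mitochondrial genes, mt-Nd6 (-1.70, SE 0.228) and mt-Nd3 (-2.06, SE 0.366; -1.66 with its copy) fell in the rescued cells and mt-Co2 rose (1.81, SE 0.571, adjusted p = 0.0164), a call lost without rescued replicate 1 (1.65). Of all genes, 24.1% were called lower and 20.9% higher on rescue. mt-Co2 alone was at 544.5 and 426.7 CPM in the rescued cells and 138, 136.4 and 141.1 CPM in the knockout. With Gm28661 added, mt-Co2 was lower by 0.60 on the log2 scale, and mt-Atp6 and mt-Co3 were called lower as well (-0.46 and -0.61), for 5 lower and 0 higher in all.

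Against E14 ES, 0 of 82 nuclear and 0 of 13 mitochondrial genes were called in the rescued cells by edgeR's quasi-likelihood test, and DESeq2 also called 0. Of all genes, 0.0285% were called higher and 0.0798% lower. At an unadjusted p under 0.05, 3 nuclear genes were higher and 3 lower, and 1 mitochondrial gene was higher. Of all genes, 9.05% passed that threshold in either direction. The median of the nuclear genes was -0.07 against 0.00 over all genes. Atp5k had the lowest value among them, -0.79 (SE 0.311, adjusted p = 0.447). Primitive endoderm marker sums moved with the nuclear genes here, at 2399 to 2780 CPM in the knockout and 330 to 364 CPM in E14 ES and the rescued cells. Their part in the result was not tested. Against TG2A ES, of the other library set, the rescued cells had a nuclear median of -0.69 and a mitochondrial one of -0.37. There 10% of all genes were called higher and 11.6% lower, and the counts of called members are given with the processing.

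Under 2i no nuclear gene was called higher in the knockout. Of the 82 nuclear genes, 0 were higher and 10 lower than in TG2A under 2i, against 15.7% and 14.3% of all genes, with a median of -0.20 against 0.01. At an unadjusted p under 0.05, 1 was higher and 21 were lower, where 40.5% of all genes passed in either direction. DESeq2 called 1 higher and 9 lower. The falls held 7 genes of complex I and 1 each of complexes III, IV and V. Ndufa5, an accessory subunit of complex I, was at 11.37 and 9.15 CPM in the knockout and 17.29 and 14.36 CPM in TG2A (-0.62, SE 0.175, adjusted p = 0.0134). Uqcrb (-0.52, SE 0.111), Ndufa4 (-0.47, SE 0.12), Ndufb4 (-0.43, SE 0.138) and Atp5c1 (-0.30, SE 0.0805) also fell. Of these, only the Uqcrb call held without each of the 4 libraries in turn; the others were lost without 2 of them or, for Ndufb4, any 1, at -0.52 to -0.28. Atp5g1 (-0.21, adjusted p = 0.299), Cox7a1 (0.53, adjusted p = 0.454) and Atp5k (-0.18, adjusted p = 0.711) were not called. No mitochondrial gene was called: the counts were 0 and 0 by edgeR's quasi-likelihood test, at an unadjusted p under 0.05 and by DESeq2. The count of 10 was 4 without replicate 2 of the knockout under 2i or replicate 1 of TG2A under 2i, and 6 without replicate 2 of the latter. In a fit of these 4 libraries alone it was 33.

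The difference between the knockout changes in the media was tested with TG2A ES as the wild type in serum and LIF, since the wild type under 2i is also TG2A. Only Atp5c1 (-0.47, SE 0.109, adjusted p = 0.0374) passed among the nuclear genes, against 0.838% of all genes higher and 1.12% lower. At an unadjusted p under 0.05, 24 were lower and 0 higher, where 16.7% of all genes passed in either direction. DESeq2 called 7 lower. The call for Atp5c1 was lost when any 1 of the 9 libraries of this test was left out, at -0.50 to -0.40. mt-Atp8, a small subunit of complex V, passed among the mitochondrial genes (3.37, SE 0.633, adjusted p = 0.0119), and this is the gene whose level separates the library sets that this test crosses. Its call was lost without replicate 2 of the knockout under 2i (2.71) or replicate 1 of TG2A under 2i (2.93). With E14 ES as the wild type, 67 nuclear genes were called lower and 0 higher, with a median of -0.95, against 13.4% and 12.5% of all genes. That test stays within 1 library set, and Atp5c1 was lower in it too (-0.77, adjusted p = 8.54e-05).

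TG2A under 2i had lower levels of many members than TG2A ES, in a comparison that crosses the library sets. Of the nuclear genes, 33 fell and 1 rose, against 11.6% and 11.7% of all genes, with a median of -0.32 against 0.00. The fall took in 15 genes of complex I, 0 of complex II, 4 of complex III, 6 of complex IV and 8 of complex V. Atp5k went from 20.4 and 26.99 CPM to 4.141 and 3.971 CPM (-2.54, SE 0.319), and Ndufa3 from 11.4 and 15.99 CPM to 4.682 and 2.92 CPM (-1.85, SE 0.357). Ndufa4l2 rose by 3.19 (SE 0.602), to 14.29 and 13.96 CPM. The 34 nuclear calls became 17 without TG2A ES replicate 2 or replicate 2 of TG2A under 2i. Of the mitochondrial genes 8 fell and 0 rose, among them mt-Nd4l (-3.32), mt-Atp8 (-2.98) and mt-Nd3 (-2.63), the shortest, and mt-Cytb (-0.88, SE 0.166). With the copies added, mt-Nd4l was at -2.32 and mt-Nd3 at -1.87, and 11 genes were called lower and 0 higher, with mt-Atp6 (-1.13), mt-Co2 (-0.67) and mt-Co3 (-0.33) among them. Without the copies, no mitochondrial gene reached an unadjusted p under 0.05 upwards, and DESeq2 called 0 higher. Against E14 ES, which is in the same library set as the 2i cells, 18 nuclear genes rose and 0 fell, with a median of 0.21, against 8.99% and 7.47% of all genes, and no mitochondrial gene was called.

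The wild-type groups in the same medium also differed from each other. In E14 ES against TG2A ES, 60 nuclear genes were lower and 1 higher, against 13.1% and 11.2% of all genes, with a median of -0.62 against 0.01, and 7 mitochondrial genes were lower and 0 higher; at an unadjusted p under 0.05, 1 mitochondrial gene was higher, as it was with DESeq2. Atp5k differed by -2.73 (SE 0.277) and Ndufa3 by -1.86 (SE 0.311). The higher gene was Ndufa4l2, at 7.905, 9.386 and 14.71 CPM against 1.717 and 1.363 CPM (2.79, SE 0.572). Without TG2A ES replicate 2 the count of 61 called nuclear genes was 34, and with the length offset it was 31. With the copies added, 9 mitochondrial genes were lower and 0 higher. The labels give both groups as wild-type E14 cells grown with LIF, so line, handling and library set cannot be told apart here.

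Other genes of mitochondrial gene expression and respiratory assembly were counted from lists chosen by function. Their counts are read against all genes, of which 27.9% rose and 32.2% fell in EPZ line 1, 28.8% and 33.4% in EPZ line 2, 27.3% and 33.4% in C57 PrE, 25.8% and 22.7% in the knockout and 15.7% and 14.3% in the knockout under 2i. On rescue 20.9% of all genes rose and 24.1% fell, and in E14 ES against TG2A ES 11.2% and 13.1%. The difference between the EPZ and C57 changes was higher for 18.8% and lower for 16.3% of all genes. The 78 mitochondrial ribosomal protein genes, which make the machine that translates the mitochondrial subunits, were 1 of these lists. In EPZ line 1, 3 rose and 61 fell (median -0.74), in EPZ line 2, 3 and 57 (median -0.61), and in C57 PrE 13 and 26 (median -0.13). The difference between the EPZ and C57 changes was lower for 38 and higher for 0 (1 higher at an unadjusted p under 0.05). In the knockout 60 rose and 0 fell (median 0.45), and 50 fell and 0 rose on rescue; at an unadjusted p under 0.05 edgeR's quasi-likelihood test also gave 0 in these directions. Under 2i, 37 fell and 1 rose in the knockout, among them Mrps16 (-1.01, SE 0.165). In E14 ES against TG2A ES, 54 were lower and 0 higher (median -0.47) (also 0 higher at an unadjusted p under 0.05), and the EPZ lines are compared with TG2A ES. Mrpl46 (-1.51) and Mrpl20 (-1.93) showed the largest falls in EPZ lines 1 and 2.

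Of 48 assembly factors, 7 rose and 22 fell in EPZ line 1, 11 and 20 in EPZ line 2, 17 and 9 in C57 PrE, and 22 and 4 in the knockout. As shares these are 14.6% and 45.8%, 22.9% and 41.7%, 35.4% and 18.8%, and 45.8% and 8.33%. Uqcc2, needed to build complex III, fell by 2.74 (SE 0.258) and 2.45 (SE 0.25) in the EPZ lines and rose by 1.23 in the knockout. Acad9, an assembly factor of complex I, rose by 1.44 and 1.47 in the EPZ lines. Uqcc1, the partner of Uqcc2, rose by 2.22 (SE 0.12) in C57 PrE, and the copper chaperone genes Sco2 and Sco1 changed there by 2.11 and -1.56. Cox17, another copper chaperone for complex IV, rose by 1.36 (SE 0.153) in the knockout. Cycs, the cytochrome c that carries electrons from complex III to IV, fell by 1.59 (SE 0.123) in EPZ line 1 and rose by 1.02 (SE 0.0983) in the knockout. It belongs to a list of 17 genes for cytochrome c and coenzyme Q, of which 2 rose and 6 fell in EPZ line 1, 5 and 5 in EPZ line 2, 3 and 5 in C57 PrE and 7 and 2 in the knockout.

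Of 16 genes for replication and transcription of mitochondrial DNA, 2 rose and 9 fell in EPZ line 1, 2 and 7 in EPZ line 2, 3 and 6 in C57 PrE and 1 and 3 in the knockout. Top1mt, the mitochondrial topoisomerase, rose by 2.03 (SE 0.177), 2.19 (SE 0.178) and 2.39 (SE 0.18) in EPZ line 1, EPZ line 2 and C57 PrE. Of 18 genes for processing of mitochondrial RNA, 5 rose and 9 fell, 6 and 7, 5 and 6, and 3 and 3 in the same 4 comparisons. In EPZ line 1 the rises were 27.8% of the list and in C57 PrE the falls were 33.3%, near the shares of all genes. On this list 11 fell and 0 rose in the knockout under 2i, 12 and 0 at an unadjusted p under 0.05. Slirp, which stabilises mitochondrial messenger RNA, rose by 1.12 (SE 0.14) in the knockout and changed by -1.24 (SE 0.161) on rescue.

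Among 11 tested nuclear regulators of respiratory genes, Esrra, a nuclear receptor that activates them, rose by 1.95, 1.93 and 1.78 in EPZ line 1, EPZ line 2 and C57 PrE. Ppargc1b, its coactivator, rose by 1.41, 2.18 and 1.32. The counts higher and lower were 3 and 3, 3 and 3, and 4 and 2. In the knockout 0 rose and 5 fell (1 and 5 at an unadjusted p under 0.05), among them Gabpb2 (-0.94, SE 0.105) and Gabpa (-0.73, SE 0.118), subunits of the ETS factor GABP. Gabpb2 and Gabpa rose by 1.18 and 1.02 on rescue.

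The 13 tested genes of the hypoxia response were counted as well, since Ndufa4l2 and Cox4i2 are known to respond to low oxygen. In the EPZ lines 8 rose and 1 fell each, with medians of 1.20 and 1.58, and in C57 PrE 4 rose and 5 fell, with a median of -0.15. The difference between the EPZ and C57 changes was higher for 9 and lower for 0, also at an unadjusted p under 0.05. Bnip3, a mitophagy receptor, rose by 3.87 (SE 0.452) and 4.10 (SE 0.456) in the EPZ lines, and Egln1, a prolyl hydroxylase that senses oxygen, by 3.61, 3.62 and 2.00 in EPZ line 1, EPZ line 2 and C57 PrE. Slc2a1, a glucose transporter, fell by 2.09 (SE 0.443) in C57 PrE. In the knockout 1 rose and 3 fell. In E14 ES against TG2A ES 6 rose and 0 fell, 8 and 0 at an unadjusted p under 0.05. In the rescued cells against E14 ES, 0 of 201 genes on these lists were called by edgeR's quasi-likelihood test. At an unadjusted p under 0.05, 8 were higher and 8 lower, where 9.05% of all genes passed in either direction.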

How the data were processed

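The 22 RNA-seq libraries come from a table of counts per gene symbol that the authors deposited. The deposited values are estimated counts: they are fractional in some library for 28 of the 82 nuclear genes, whole for 54, and were rounded to whole numbers here, although tests of whole counts had been planned. The estimated counts that the authors deposited come, per the submitters' processing notes, from a pipeline that names Trim Galore, STAR 2.7.6a, DESeq2 and mm10, with no order or role given. Not given in the sources used here are the counting tool, the gene annotation and the use of strand. The labels name both poly(A) RNA and an rRNA depletion kit, so how far reads without a poly(A) tail are kept is unknown. Without strand, reads of mt-Nd6 and of the opposite strand cannot be told apart.

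Samples were grouped by their titles. edgeR 4.0.16 in R 4.3.3 (TMM scaling, filterByExpr, quasi-likelihood test, 1 coefficient per group, 12 residual degrees of freedom) was run on 17547 genes, with Benjamini-Hochberg adjustment and calls at an adjusted p below 0.05. At an unadjusted p under 0.05, in either direction, 64.2% of all genes passed in EPZ line 1, 65.4% in EPZ line 2 and 64.4% in C57 PrE. This share was 43.7% for the EPZ and C57 difference, 54.9% in the knockout and 51.8% on rescue. It was 35.8% in TG2A under 2i and 35.7% in E14 ES against TG2A ES. Positive log2 changes are higher in the first-named group; SE is the log2 change divided by the root of the F statistic. Levels are CPM on TMM-scaled totals and shares are percent of deposited totals, which ran from 13586043 to 26280949 counts; these limit the precision of genes near 1 CPM. Replicates differed by more than counting noise (chi-square per degree of freedom 2.14 to 55.5), so none was merged. The largest values were those of C57 ES (54.3) and C57 PrE (55.5). The tests used a spread pooled over all groups, so it may be too small for the C57 cells. The test was tested on simulated data. Alternatives were DESeq2 1.42.0, RLE scaling, scaling without mitochondrial genes, no filter, only the groups compared, genes with whole values, a replicate block, leaving out each library and, added after the data were seen, an offset for transcript length (a lowess fit with span 0.3), the other wild-type set and the added copies. Lengths and copies (at least 99% identity over at least 250 bases) come from GENCODE M21 on GRCm38, promoters from RefSeq GRCm38.p6.

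The genes and lists were chosen with earlier results of these data known. Named were all mitochondrial genes, per comparison and complex up to 2 called rises and 2 falls of largest change among nuclear genes whose groups did not overlap, alternative subunits with their counterparts, the c-ring genes, and up to 3 called genes per other list; genes outside this rule are marked.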

Additional observations from a re-analysis of the deposited data

Results flagged for a closer look

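The change in the EPZ lines differed from that in C57 PrE, by a test of the difference itself, for 39 nuclear genes. Of the genes named in that comparison, Ndufa4l2 (7.86 on the log2 scale) and Cox4i2 (2.99) were higher in the EPZ change. Ndufa2 (-1.41), Ndufa1 (-1.38), Sdhc (-0.90), Uqcrq (-0.88), Cox8a (-1.08), Cox6c (-0.98), Atp5md (-1.47) and Atp5e (-1.18) were lower. The calls for Cox8a and Atp5e were lost without TG2A ES replicate 2 (-0.79 and -0.82), that for Uqcrq without C57 ES replicate 1, C57 PrE replicate 1 or TG2A ES replicate 1 (-0.83 to -0.78), and that for Cox4i2 without C57 ES replicate 1 (0.99), C57 PrE replicate 2 (2.49) or TG2A ES replicate 2 (2.87). With E14 ES as the wild type, Ndufa4l2 (5.07), Cox4i2 (2.50), Cox8a (-0.91) and Sdhc (-0.64) kept the call, and Ndufa2 (-0.31), Ndufa1 (-0.17), Uqcrq (0.17), Cox6c (-0.23), Atp5md (0.18) and Atp5e (-0.49) lost it. Strain, line history and the use of EPZ-6438 cannot be told apart in this difference.

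The knockout change under 2i differed from that in serum and LIF for 1 nuclear gene, Atp5c1 (-0.47), and 1 mitochondrial gene, mt-Atp8 (3.37). This test crosses the library sets. The Atp5c1 call was lost when any 1 library of the test was left out. With E14 ES as the wild type, which keeps all libraries in 1 set, Atp5c1 was also lower (-0.77, adjusted p = 8.54e-05 by edgeR's quasi-likelihood test). Most nuclear genes were called lower there, with a median of -0.95, against 13.4% of all genes, so this is not particular to Atp5c1. Both tests use the same knockout and 2i libraries. mt-Atp8, whose level separates the sets, was not called with E14 ES as the wild type (0.21, adjusted p = 0.85).

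The chromosome 1 copies are outside the main measurement and held more counts than their genes: Gm10925 averaged 1799 CPM, Gm28661 4137 CPM, Gm28437 4270 CPM, Gm28438 138 CPM and Gm10222 42.7 CPM over the 22 libraries.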

How the results depend on the processing

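The length offset, the other wild-type set and the added copies were chosen after seeing the data. Where a count or value changed, the cause was not tested, except that genes with whole values are fewer (54 of 82).

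Counts of called nuclear genes over genes with whole values alone were 36 in EPZ line 1, 24 in EPZ line 2, 47 in the knockout, 44 on rescue, 5 in the knockout under 2i, 21 in TG2A under 2i and 38 in E14 ES against TG2A ES. In fits of only the groups compared they were 12 in C57 PrE, 22 for the EPZ and C57 difference, 33 in the knockout under 2i and 10 for the medium difference of the knockout. The length offset gave 44 in the knockout, 41 on rescue, 31 in E14 ES against TG2A ES and 0 for the medium difference. The other wild-type set gave 18 for the EPZ and C57 difference, 8 in the knockout, 59 in the rescued cells, 18 in TG2A under 2i and 67 for the medium difference. Without the filter the knockout under 2i gave 5 and the medium difference 3; for the latter DESeq2 gave 7 and RLE scaling 0.

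Counts of called mitochondrial genes without the filter were 7 in EPZ line 1, 7 in EPZ line 2, 8 in C57 PrE, 3 for the EPZ and C57 difference, 10 on rescue, 1 in the rescued cells against E14 ES, 3 in the knockout under 2i and 4 for the medium difference. The other wild-type set gave 9, 11 and 4 for the EPZ lines and the difference, 2 in the knockout, 5 in the rescued cells, 0 in TG2A under 2i and 3 for the medium difference. In EPZ line 1 the count was 2 with the copies added, DESeq2, only the groups compared, RLE scaling or scaling without mitochondrial genes. With the copies added it was 5 in C57 PrE, 5 on rescue and 2 for the medium difference, and with the length offset 3 in EPZ line 1, 3 in the knockout and 5 on rescue. Only the groups compared gave 1 in C57 PrE, 10 on rescue, 3 in the knockout under 2i and 2 for the medium difference, where DESeq2 also gave 2.

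The length offset turned the sign of Atp5g2 in EPZ line 1 (0.25), EPZ line 2 (0.27), the knockout (-0.31) and on rescue (0.30), of Sdhb (0.0456), Ndufa4 (0.26) and Atp5g3 (0.0501) in EPZ line 2, of mt-Nd2 (-0.16) and Cox8a (-0.10) in the knockout, of Sdhb (0.0245) and Cox8a (5e-04) on rescue and of Cox4i1 (0.008) in E14 ES against TG2A ES. Adding the copies turned mt-Atp6 in EPZ line 2 (-0.25) and E14 ES against TG2A ES (-0.89), and mt-Co2 in C57 PrE (0.30), the knockout (0.74), on rescue (-0.60), in TG2A under 2i (-0.67) and in E14 ES against TG2A ES (-0.45). On TMM-scaled CPM the summed level in the knockout under 2i, as a ratio to TG2A under 2i, was 0.988 in place of 1.10 for the mitochondrial and 0.878 in place of 0.983 for the nuclear genes.

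Same-numbered libraries deviated together in the C57 groups (r = 0.29) and not elsewhere (r = -0.051 to 0.0536), and no label says that a number marks a shared culture, so the numbers were not taken as pairs. Replicate 2 had the higher fibroblast marker sum in both C57 groups, at 484 CPM in ES and 2103 CPM in PrE. With the replicate block, the mitochondrial count in EPZ line 1 was 2 and the nuclear count of the medium difference 0. That block was fitted over all groups together, and a pairing within the C57 groups alone was not tested.

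Leaving out each library in turn gave nuclear and mitochondrial counts of 36 to 56 and 0 to 3 in EPZ line 1, 30 to 42 and 1 to 5 in EPZ line 2, 22 to 35 and 2 to 4 in C57 PrE, 25 to 42 and 0 to 4 for the EPZ and C57 difference, 61 to 70 and 5 to 7 in the knockout, 54 to 67 and 2 to 4 on rescue, 0 and 0 in the rescued cells, 4 to 9 and 0 in the knockout under 2i, 17 to 36 and 6 to 8 in TG2A under 2i, 0 to 3 and 0 to 1 for the medium difference, and 34 to 65 and 5 to 8 in E14 ES against TG2A ES. A group left with 1 library is assumed to vary like the others. Of 4936 recomputed values of 370 gene changes, 4273 kept direction and call, 235 stayed uncalled with another sign, 146 gained a call, 263 lost it and 19 called values reversed.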
